A study of Homo sapiens with 4 samples.

Results

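The genes examined here were PTGS2 and 9 other genes of prostaglandin metabolism: PLA2G4A, PTGS1, PTGES, PTGES2, PTGES3, PTGR1, HPGD, PTGER2 and PTGER4. They were 10 of the 18239 genes with a probe set annotated to a single symbol. For each gene the probe set of highest mean value was taken, and its other probe sets served as a check. The choice of genes was made with earlier results of these data known, and PTGS2 was chosen for its difference between the lines. Its values are therefore a description and carry no test.

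Total RNA was measured in 2 human lung cancer lines, with 2 arrays for each. PC9 is an established line of lung adenocarcinoma that carries an activating mutation of EGFR. MTAC-P is labelled a resistant line that arose under mild exposure to a tyrosine kinase inhibitor, a drug class that blocks signalling by receptors such as EGFR. The labels give MTAC-P no parent line, drug or dose, and nothing on drug in the medium at harvest. Lines were grown in DMEM with fetal bovine serum, and MTAC-P is represented by a single line. Replicates were called duplicates with no statement of separate cultures, so p-values measure only the spread between these arrays, which may be technical. In bulk RNA, fewer cells of a type and less RNA per cell cannot be told apart.

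Prostaglandins are lipid mediators made from arachidonic acid. Cytosolic phospholipase A2 releases the acid from membranes, the cyclooxygenases convert it to prostaglandin H2, and terminal synthases turn this into prostaglandin E2 and related products. Prostaglandin E2 acts through the receptors EP1 to EP4, of which EP2 and EP4 raise cyclic AMP, and it is inactivated by the dehydrogenase encoded by HPGD and by reductases such as that encoded by PTGR1. In lung adenocarcinoma the inducible cyclooxygenase PTGS2 is known as a source of prostaglandin E2, and HPGD as the opposing enzyme.

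The promoters of the cyclooxygenase genes are shown because both genes had lower values in MTAC-P on their chosen probe sets. RefSeq windows of the assembly GRCh38.p14 were used, each holding the 250 bases before an annotated start, and all 10 genes had at least 1 window. The PTGS2 window is chr1:186680424-186680673 on the minus strand. PTGS1 has 2 annotated starts, with windows at chr9:122370283-122370532 and chr9:122375052-122375301 on the plus strand, the latter inside the annotated gene. Capitals mark matches, on either strand, to the TATA box TATAAAA, the κB-like pattern GGGACTNNC, the C/EBP pattern TTNNGNAAT, the cyclic AMP response element core CGTCA and the E-box CANNTG. These motifs were chosen from what is known of the PTGS2 promoter.
PTGS2: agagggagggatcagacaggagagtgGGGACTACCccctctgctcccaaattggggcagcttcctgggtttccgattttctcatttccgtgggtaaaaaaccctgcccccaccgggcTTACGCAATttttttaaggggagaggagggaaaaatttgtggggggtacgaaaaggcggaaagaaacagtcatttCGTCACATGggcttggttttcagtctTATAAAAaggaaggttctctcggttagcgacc
PTGS1 upstream start: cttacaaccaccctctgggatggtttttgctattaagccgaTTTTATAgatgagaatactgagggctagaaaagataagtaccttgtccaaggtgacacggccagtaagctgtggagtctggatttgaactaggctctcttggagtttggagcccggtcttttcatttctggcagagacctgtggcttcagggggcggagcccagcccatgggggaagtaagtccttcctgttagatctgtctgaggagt
PTGS1 internal start: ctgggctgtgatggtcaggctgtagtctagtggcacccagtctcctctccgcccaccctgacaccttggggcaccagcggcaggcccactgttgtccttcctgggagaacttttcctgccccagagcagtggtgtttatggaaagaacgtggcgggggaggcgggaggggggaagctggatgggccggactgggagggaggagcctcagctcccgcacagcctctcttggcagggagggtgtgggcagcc
The PTGS2 window held a κB-like match from 224 to 216 bases before the start and a C/EBP match from 133 to 125. Its CGTCA match, from 58 to 54 bases before the start, overlapped the E-box match from 55 to 50, and the TATA box lay from 32 to 26. The only match in the PTGS1 windows was TATAAAA on the opposite strand, from 209 to 203 bases before the upstream start. Of the 14 windows of the 10 genes, the PTGS2 window alone matched all 5 patterns, which were chosen for it. Among 35114 windows of this length, 4.18% held TATAAAA, 4.60% the κB-like pattern, 9.85% the C/EBP pattern, 21.2% CGTCA and 61.8% an E-box. A match is a description of the letters and not of a bound factor.

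Values are log2 expression values, on which a difference of 1 is a 2-fold difference. Genes whose mean over the 4 arrays was below the 25th percentile of all probe-set means, a log2 value of 4.14 called the dim value here, were left out of testing. Of the 10 genes, 9 passed and PTGER2 did not. PLA2G4A, at a mean of 4.28, was the nearest above this limit and PTGER2, at 4.03, the nearest below it. HPGD and PLA2G4A passed only through PC9, since their MTAC-P means lay under the dim value, so the count of tested genes that were lower is no support for a shared direction. The mean was lower in MTAC-P for 9 of the 10 genes, and PTGES2 alone was higher. This count also includes PTGS2, chosen for its difference, PTGER2, below the dim value, and PTGES, whose other probe sets were higher. It is no support for a shared direction either. Of the 14970 tested genes, 46.2% had lower means in MTAC-P.

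With limma's moderated test over all tested genes, 0 of the 9 tested prostaglandin genes passed the adjusted p threshold of 0.05, against 3 genes, or 0.0200%, of the whole table. PTGS2 was chosen for its difference, and HPGD and PLA2G4A were admitted only through PC9, so counts that include them are partly fixed by the choice and the filter. Of the other 6 tested genes, 0 passed and 1, PTGS1, had an unadjusted p under 0.05, which 18.9% of all tested genes had. Without PC9 replicate 1 the test passed 68 genes of the table and 0 of these 6. Values of PC9 and MTAC-P did not overlap for 4 of the 6, with 3 lower and 1 higher in MTAC-P. Over all tested genes this share was 53.2%, with 24.9% lower and 28.3% higher.

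**Figure D1:**
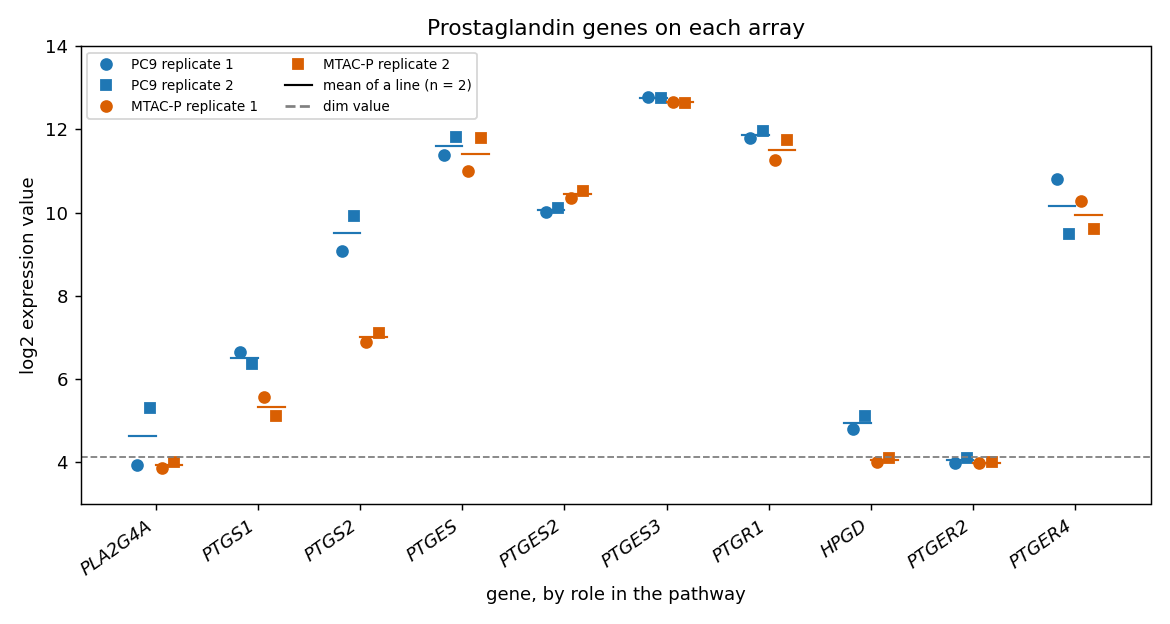
Log2 expression value (vertical axis) of the 10 prostaglandin genes (horizontal axis, ordered by role) on the PC9 arrays (blue) and the MTAC-P arrays (orange), with circles for replicate 1, squares for replicate 2, short lines for the mean of each line (n = 2) and a dashed line at the dim value of 4.14. PTGS2 sits at 9.07 and 9.93 in PC9 and at 6.89 and 7.11 in MTAC-P, while the replicates of PTGER4 lie further apart than the lines.

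The cyclooxygenases had the largest differences of the 10 genes. PTGS2, the inducible cyclooxygenase, had values of 9.07 and 9.93 in PC9 and of 6.89 and 7.11 in MTAC-P. The lowest PC9 array thus lay well above the highest MTAC-P array, and the PC9 arrays differed from each other more than the MTAC-P arrays did. The means were 9.50 ± 0.60 in PC9 and 7.00 ± 0.15 in MTAC-P (SD, n = 2), a log2 difference of -2.50, or 5.66-fold lower in MTAC-P. In the order of all 14970 tested genes from the most negative difference, PTGS2 stood at place 4.

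All 3 probe sets of PTGS2 lay above the dim value and had arrays that did not overlap. The probe set with the next highest mean gave 7.10 and 7.72 in PC9 and 5.31 and 5.56 in MTAC-P, a difference of -1.97. The remaining one gave 5.69 and 5.63 in PC9 and 4.86 and 4.49 in MTAC-P, a difference of -0.98. The direction was therefore the same on each probe set, and the size was smaller on those with lower values.

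PTGS1, the constitutive cyclooxygenase, had values of 6.66 and 6.37 in PC9 and of 5.56 and 5.10 in MTAC-P. PC9 and MTAC-P values did not overlap. Its means were 6.51 ± 0.20 and 5.33 ± 0.32 (SD, n = 2), a 2.27-fold difference, with a log2 difference of -1.18 (SE 0.21) and a limma adjusted p of 0.108. The other 3 probe sets of PTGS1 had means from 4.11 to 4.59, near or below the dim value, and differed by -0.14, -0.12 and -0.061. With the mean of all its probe sets PTGS1 differed by -0.37, so the size of its difference rests on a single probe set. Of all tested genes, 1.62% had means at least 2-fold lower in MTAC-P. PTGS1 lay beyond this size on its chosen probe set only. PTGS2 lay beyond it too, but it was chosen for its difference, so its place is no support.

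**Figure D2:**
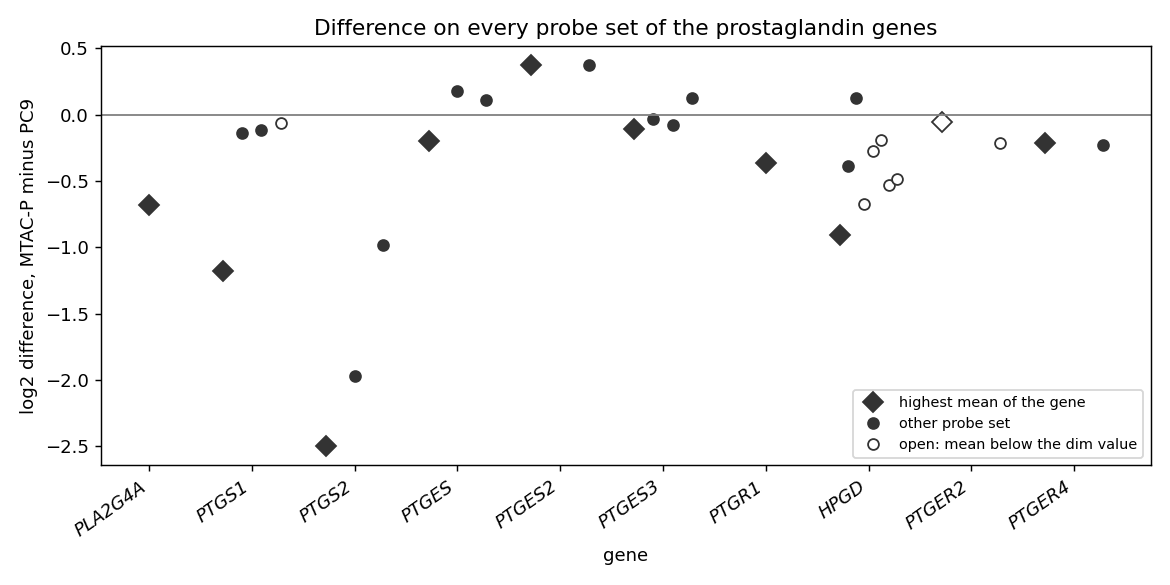
Log2 difference, MTAC-P minus PC9 (vertical axis), on each of the 30 probe sets of the 10 prostaglandin genes (horizontal axis), with diamonds for the probe set of highest mean, circles for the others and open symbols for means below the dim value of 4.14. All 3 PTGS2 probe sets lie between -2.50 and -0.98, and those of PTGES lie on both sides of 0.

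PLA2G4A, which encodes the cytosolic phospholipase A2 that supplies arachidonic acid, had values of 3.93 and 5.32 in PC9 and of 3.88 and 4.01 in MTAC-P. Only PC9 replicate 2 stood above the dim value, and the arrays of the lines overlapped. The log2 difference was -0.68, and it was 0.012 without PC9 replicate 2. The gene had a single probe set. PLA2G4A is the nearest tested gene to PTGS2 on one side on chromosome 1, at a gap of 149 kb in the RefSeq table of GRCh38.p14. The nearest on the other side, ODR4, lies 237 kb away and had 8.03 and 8.22 in PC9 and 7.92 and 7.41 in MTAC-P, a difference of -0.46 (SE 0.21).

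The terminal prostaglandin E synthases had log2 differences from -0.20 to 0.37 on their chosen probe sets. PTGES, the inducible microsomal synthase that is often co-induced with PTGS2, had values of 11.37 and 11.82 in PC9 and of 11.01 and 11.78 in MTAC-P. The arrays overlapped, and the log2 difference was -0.20 (95% interval -0.91 to 0.50). Its other probe sets differed by 0.18 and 0.11, and the mean of all its probe sets by 0.028, so the sign of the PTGES difference is not settled. Within each line replicate 2 lay above replicate 1, by 0.45 in PC9 and 0.78 in MTAC-P, which is more than the difference between the lines.

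PTGES2, a membrane-associated synthase, was the only prostaglandin gene with a higher mean in MTAC-P. Its values were 10.01 and 10.11 in PC9 and 10.35 and 10.52 in MTAC-P, and the arrays did not overlap. The means were 10.06 ± 0.073 and 10.44 ± 0.11 (SD, n = 2), with a log2 difference of 0.37 (95% interval -0.011 to 0.76, limma adjusted p = 0.275). Its other probe set gave 8.17 and 8.15 in PC9 and 8.51 and 8.56 in MTAC-P, also a difference of 0.37. Leaving out 1 array moved the PTGES2 difference only between 0.29 and 0.45.

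PTGES3, the cytosolic synthase also known as the HSP90 co-chaperone p23, had values of 12.76 and 12.74 in PC9 and of 12.66 and 12.63 in MTAC-P. The duplicates were so close that the arrays did not overlap, although the log2 difference was only -0.11 (95% interval -0.47 to 0.25). Its other 3 probe sets differed by -0.033, -0.076 and 0.13.

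HPGD and PTGR1, of prostaglandin breakdown, had lower means in MTAC-P. The reductase genes PTGR2 and PTGR3, outside the 10 genes, differed by 0.093 (SE 0.26) and 0.24 (SE 0.23). Each of PTGR2 and PTGR3 also had a probe set of the opposite sign. HPGD, which encodes 15-hydroxyprostaglandin dehydrogenase, had values of 4.81 and 5.11 in PC9 and of 4.004 and 4.10 in MTAC-P. The PC9 arrays were somewhat above the dim value and the MTAC-P arrays below it, so the 1.87-fold difference can understate the true one. The log2 difference was -0.90, given with no test because the gene was admitted through its PC9 values. Of the 8 HPGD probe sets 7 were lower in MTAC-P, with arrays that did not overlap, and they ranged from -0.90 to -0.19. The other probe set differed by 0.13. The chosen probe set had the largest difference of the 8, and the mean of all HPGD probe sets differed by only -0.42. Only 3 of the 8 had means above the dim value, and several may share target sequence, so they are not independent readings.

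PTGR1, a reductase acting on prostaglandin and leukotriene products, had values of 11.79 and 11.95 in PC9 and of 11.27 and 11.74 in MTAC-P. The arrays did not overlap, by a narrow margin between PC9 replicate 1 and MTAC-P replicate 2. The log2 difference was -0.37 (95% interval -0.86 to 0.13), and leaving out MTAC-P replicate 1 gave -0.13 and leaving out replicate 2 of that line gave -0.60. The gene had 1 probe set.

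Of the receptors, PTGER2, which encodes EP2, was dim in both lines. Its values were 3.99 and 4.12 in PC9 and 3.98 and 4.02 in MTAC-P, and its other probe set was also below the dim value. Nonspecific control probe sets with under 20 G or C bases ran from 3.56 to 4.40 over the arrays, a range that held every PTGER2 value. The highest of the controls with more G or C bases read 6.81 to 7.38, depending on the array.

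PTGER4, which encodes EP4, had values of 10.81 and 9.49 in PC9 and of 10.27 and 9.60 in MTAC-P. Replicate 1 lay above replicate 2 in both lines, by 1.32 in PC9 and 0.68 in MTAC-P, and the arrays of the lines overlapped. The log2 difference between the lines was -0.22 (95% interval -1.28 to 0.85). Without PC9 replicate 1 it was 0.44 and without PC9 replicate 2 it was -0.87. These data do not settle the direction of the PTGER4 difference.

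**Figure D3:**
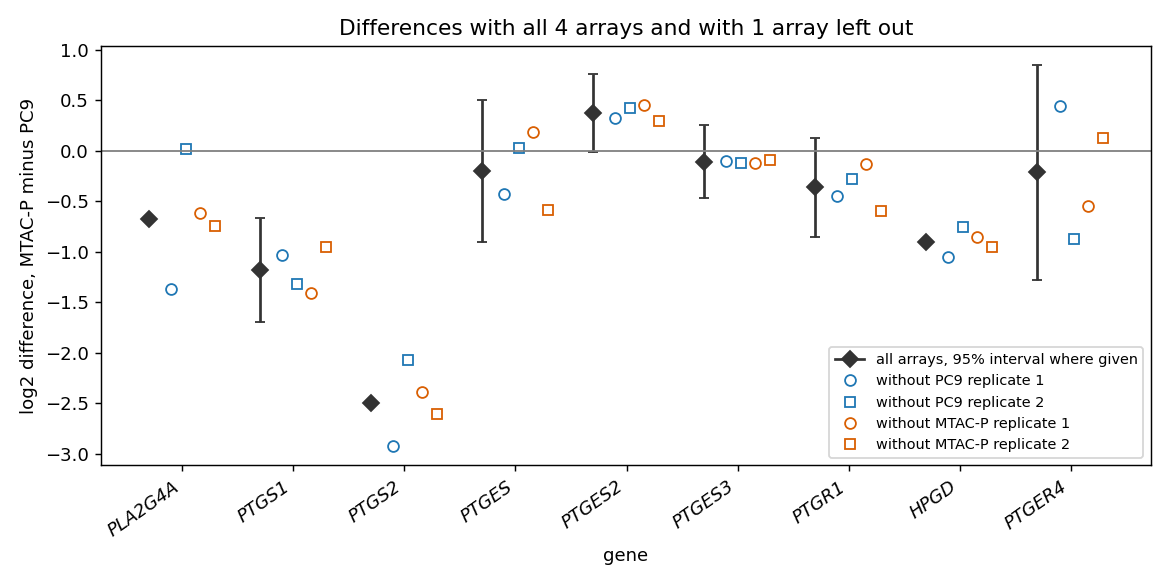
Log2 difference, MTAC-P minus PC9 (vertical axis), of the 9 tested prostaglandin genes (horizontal axis) with all 4 arrays (diamonds, with limma's 95% interval except for PTGS2, HPGD and PLA2G4A) and with 1 array left out (open symbols). PTGS2 lies between -2.93 and -2.07 and PTGS1 between -1.41 and -0.95 when 1 array is left out, whereas PLA2G4A, PTGES and PTGER4 take values on both sides of 0.

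Control and marker readings of the arrays were as follows. For ACTB the 3' minus 5' control probe set value, a sign of RNA integrity and labelling on the log2 scale, was 1.71 and 2.49 in PC9 and 1.51 and 1.75 in MTAC-P, with overlapping arrays, and for GAPDH it stayed between -0.090 and 0.038. The poly-A spike-in controls averaged 7.29 and 7.60 in PC9 and 8.13 and 8.19 in MTAC-P, with no overlap. The part of these readings in the PTGS2 and PTGS1 differences was not tested. The 6 epithelial markers ranged from 10.28 to 14.42 over the arrays. EPCAM (-0.49) and CDH1 (-0.54) were lower and KRT8 (0.36) and KRT18 (0.12) higher in MTAC-P, with arrays that did not overlap. KRT7 and KRT19 had overlapping arrays. Of 5 leukocyte markers measured, all but the widely expressed lysosomal gene CD68 stayed at or below 5.22. Their summed level on the log2 scale, which CD68 dominates, was 9.16 to 9.19 in PC9 and 9.24 to 9.52 in MTAC-P. The 6 fibroblast markers stayed at or below 5.22, with summed levels of 6.87 to 7.03 in PC9 and 6.73 to 6.86 in MTAC-P. The 4 endothelial markers stayed at or below 5.95, with sums of 6.88 to 7.00 in PC9 and 6.44 to 7.06 in MTAC-P. The part of these marker readings in the differences was not tested. The 4 lung lineage markers NKX2-1, NAPSA, SFTPB and SFTPC lay between 4.59 and 5.22, close to the dim value in both lines.

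The 5 tested genes whose profile over the 4 arrays was most like that of PTGS2 were RARRES1, CEACAM6, IGFBP2, SPRR3 and SERPINB4. Likeness was the root-mean-square difference between profiles centred on each gene's mean, and it was 0.17, 0.20, 0.22, 0.24 and 0.27 on the log2 scale in that order. RARRES1, a retinoid-responsive gene, had 7.44 and 8.64 in PC9 and 5.62 and 5.52 in MTAC-P. CEACAM6, a cell adhesion molecule, had 10.21 and 10.96 in PC9 and 8.47 and 8.33 in MTAC-P. IGFBP2, an insulin-like growth factor binding protein, had 8.98 and 9.41 in PC9 and 6.85 and 7.18 in MTAC-P. In these genes, as in PTGS2, PC9 replicate 2 was the highest array.

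SPRR3, a cornified envelope protein, had 6.23 and 7.41 in PC9 and 4.74 and 4.53 in MTAC-P. SERPINB4, a clade B serpin of squamous epithelia, had 5.23 and 6.74 in PC9 and 3.71 on both MTAC-P arrays, below the dim value. The lines differed by -2.47 for RARRES1, -2.18 for CEACAM6, -2.18 for IGFBP2, -2.19 for SPRR3 and -2.27 for SERPINB4. These genes were selected for their likeness on the same arrays, so the differences are a description.

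**Figure D4:**
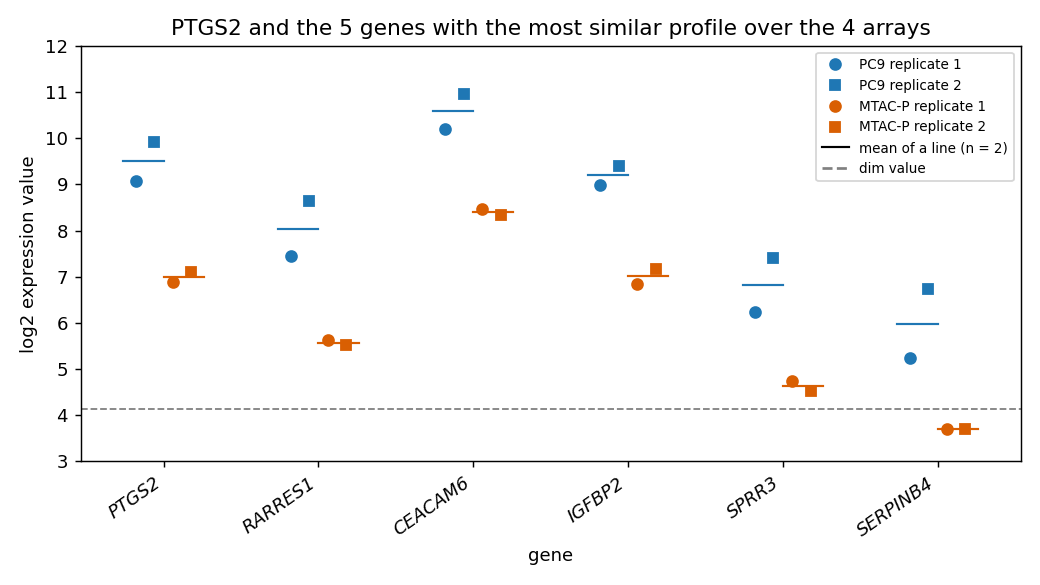
Log2 expression value (vertical axis) of PTGS2 and of the 5 genes most like it over the 4 arrays (horizontal axis), with PC9 in blue, MTAC-P in orange, circles for replicate 1, squares for replicate 2, short lines for means (n = 2) and a dashed line at the dim value of 4.14. PC9 replicate 2 is the highest array for each gene, and the MTAC-P arrays lie close together.

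Other genes of the pathway were described by 5 lists, of which 105 genes were tested. None of the 105 passed limma's adjusted p threshold (0 genes, against 0.0200% of all tested genes), and 15, or 14.3%, had an unadjusted p under 0.05, against 18.9% of all tested genes. With a variance trend 3 of the 105 passed, when 77 of the 14970 tested genes did. At an adjusted p threshold of 0.10, 2 of the 105 passed, when 124 of the 14970 did. The lists were chosen with earlier results of these data known, so these counts are a description. The median difference over all tested genes was 0.031. PTGER3 and ALOX12 passed the dim filter only through MTAC-P, and PTGFR, HPGDS and PDE3B only through PC9. The counts of direction and overlap below include these genes and are to that extent fixed by the filter.

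Among 19 tested genes for other prostanoid enzymes, carriers and receptors, 10 had higher means in MTAC-P and 9 lower means, with a median of 0.093 that was -0.032 without MTAC-P replicate 2. Arrays did not overlap for 5 of the 19, or 26.3%, against 53.2% of all tested genes. AKR1C2 and AKR1C3 encode aldo-keto reductases, the latter a prostaglandin F synthase. AKR1C2 had 13.14 and 13.40 in PC9 and 13.62 and 13.92 in MTAC-P, a difference of 0.50 (SE 0.19). The 5 probe sets of AKR1C2, 3 of them above the dim value, ran from -0.20 to 0.50. AKR1C3 differed by -0.24 (SE 0.16), and since the AKR1C genes are close paralogs their probe sets may share signal. SLCO2A1, the prostaglandin uptake transporter, had a low mean of 4.93, against the dim value of 4.14, and differed by 0.32 (SE 0.17). Its 3 probe sets, 2 of them above the dim value, ran from 0.078 to 0.51. PTGIR, the prostacyclin receptor gene, had an MTAC-P mean of 4.14, at the dim value, and differed by -0.24 (SE 0.19).

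Among 22 tested genes of phospholipases and arachidonate handling, 11 were higher and 11 lower. Their median was 0.0029, and arrays did not overlap for 9, or 40.9%, against 53.2% of all tested genes. ACSL5, a long-chain acyl-CoA synthetase, had 5.97 and 5.59 in PC9 and 4.34 and 3.99 in MTAC-P, a difference of -1.61 (SE 0.21). Its 3 probe sets ranged from -1.61 to -0.21. ANXA1, which encodes annexin A1, a glucocorticoid-induced protein known to restrain phospholipase A2, had 12.06 and 12.33 in PC9 and 11.42 and 10.83 in MTAC-P. The ANXA1 difference was -1.07 (SE 0.24), and its 5 probe sets ranged from -1.24 to 0.11. On the higher side, PLA2G6, a calcium-independent phospholipase, differed by 0.76 (SE 0.18), and its 4 probe sets ran from -0.32 to 0.76. PLA2G15, a lysosomal phospholipase, differed by 0.52 (SE 0.22), and its other probe set by -0.11.

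Among 12 tested lipoxygenase and leukotriene genes, 9 were higher and 3 lower, where 53.8% of all tested genes were higher. Their median was 0.099, and arrays did not overlap for 4, or 33.3%, against 53.2% of all tested genes. ALOX15B, a lipoxygenase, had a mean of 4.48, near the dim value. It differed by 0.40 (SE 0.19), but its 5 probe sets ran from -0.32 to 0.40. ALOX5AP, the 5-lipoxygenase activating protein, differed by 0.27 (SE 0.16). EPHX2, the soluble epoxide hydrolase, differed by -0.15 (SE 0.16), and its other probe set by 0.39.

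Among 28 tested regulators of PTGS2 transcription and mRNA stability, 20 had higher means and 8 lower means in MTAC-P, with a median of 0.084, while 53.8% of all tested genes were higher. Arrays did not overlap for 17 of the 28, or 60.7%, against 53.2% of all tested genes. NFAT5, an osmotic stress factor of the NFAT family, had 8.80 and 8.81 in PC9 and 7.74 and 7.68 in MTAC-P, a difference of -1.10 (SE 0.15), with 4 probe sets from -1.10 to -0.24. HIF1A, the hypoxia-inducible factor, had 11.74 and 11.79 in PC9 and 11.03 and 10.80 in MTAC-P. The HIF1A difference was -0.85 (SE 0.16), and its 8 probe sets lay between -0.90 and -0.53. RELB, an NF-κB subunit, had 6.75 and 6.54 in PC9 and 7.41 and 7.28 in MTAC-P, a difference of 0.70 (SE 0.16). NFATC1, another NFAT factor, differed by 0.86 (SE 0.19), and its 5 probe sets ran from -0.25 to 0.86.

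Among 24 tested genes of the cyclic AMP response downstream of EP2 and EP4, 14 were higher and 10 lower. The median was 0.054, and it was -0.069 without MTAC-P replicate 2. Arrays did not overlap for 12 of the 24, against 53.2% of all tested genes. RGS2, a regulator of G protein signalling, had 6.23 and 5.71 in PC9 and 7.01 and 6.52 in MTAC-P, a difference of 0.79 (SE 0.25). RGS2 is also the nearest tested gene beyond PLA2G4A on chromosome 1, at a gap of 5820 kb. ADCY6, an adenylate cyclase, differed by 0.75 (SE 0.38), with MTAC-P arrays at 5.96 and 7.20 against PC9 arrays at 5.88 and 5.79. The other probe set of ADCY6 differed by -0.19. PRKAR1A, a regulatory subunit of protein kinase A, had 10.53 and 10.35 in PC9 and 9.79 and 9.72 in MTAC-P, a difference of -0.68 (SE 0.16), with 3 probe sets from -0.68 to 0.51. PRKACB, a catalytic subunit of the same kinase, differed by -0.41 (SE 0.21), and its 4 probe sets ran from -0.41 to 0.18.

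**Figure D5:**
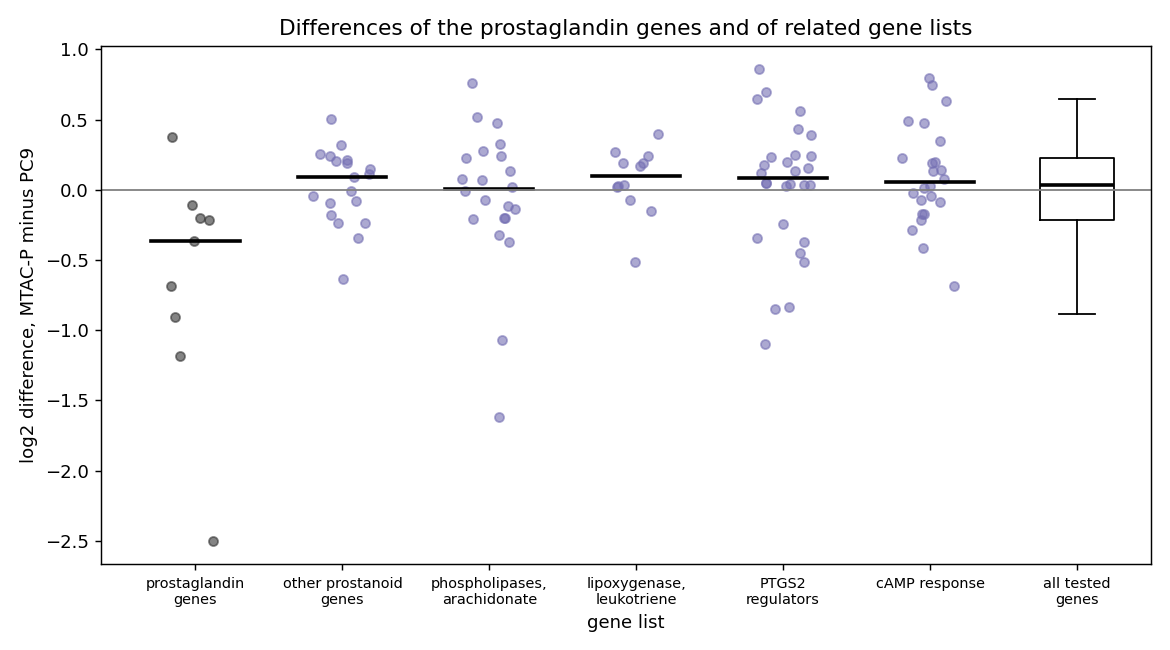
Log2 difference, MTAC-P minus PC9 (vertical axis), of the 9 tested prostaglandin genes (black points) and of the tested genes of 5 related lists (purple points), with bars at medians (horizontal axis, by list), beside all 14970 tested genes (box from 25th to 75th percentile, whiskers from 2.5th to 97.5th percentile, -0.88 to 0.65). PTGS2, at -2.50, PTGS1, ACSL5, NFAT5, ANXA1 and HPGD lie below the lower whisker. NFATC1, RGS2, PLA2G6, ADCY6 and RELB lie above the upper whisker, and the list medians lie between 0.0029 and 0.099.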

How the data were processed

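Total RNA of PC9 and MTAC-P (2 arrays each) was labelled with Cy3 by a one-colour Agilent kit, per the labels' protocols, and Agilent Feature Extraction 10.7 is named in the submitters' processing notes. The authors deposited log2 expression values for 49386 probe sets, whose names are of Affymetrix type. How this relates to the Agilent software is unclear. The values, 3.32 to 14.6, point to a log2 scale, and background correction, normalization and summarization are not given in the sources used here. Array medians lay between 4.85 and 4.88, and no further scaling was applied. The number of arrays limits the precision.

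Probe sets were named from GEO's platform annotation, and gene identifiers were used to update symbols to the RefSeq table of GRCh38.p14 (14944 of 14970 tested genes matched). Control probe sets (93), those with several symbols (1327) and those unnamed here (2713) were not used for gene results. The lines were compared over all tested genes with limma 3.58.1 in R 4.3.3 (lmFit, eBayes with a constant prior variance, 2-sided, Benjamini-Hochberg adjustment). SEs and 95% intervals are limma's moderated ones. An exact permutation test of 2 against 2 arrays cannot give a 2-sided p below 0.333. The members, lists and motifs were chosen with earlier results of these data known. Text names all 10 members, up to 2 higher and 2 lower non-overlapping genes of each list, the 5 genes most like PTGS2 and the chromosomal neighbours of PTGS2 and PLA2G4A. The fit was tested on 20 simulated data sets of 14970 genes for this comparison. Recovery was 27.8% for log2 changes of 1, 94.5% for changes of 2 and 98.5% for changes of 3, and 9 calls per data set were wrong. These rates belong to simulated sets that each held 200 changed genes, and they need not hold for the arrays. On the arrays 3 genes passed, and PTGS2, at -2.50, did not. Other settings tried were the replicate block, arrays centred at their median or 75th percentile, quantile scaling, other dim filters, other probe sets or their mean, a trended or robust prior, a pseudocount of 16, a threshold of 0.10 and each array left out. Python 3.11.15 with matplotlib 3.10.9 drew the figures.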

Additional observations from a re-analysis of the deposited data

How the results depend on the processing

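The 10 genes' differences were recomputed under 14 other settings and on their other probe sets, giving 144 values (PTGER2, below the dim value, only without the filter), of which 10 had the opposite sign. The cause was not tested. The replicate block, the other dim filters and the trended or robust prior leave a difference unchanged, so no sign could turn under them. Leaving out 1 array cannot turn the sign of a gene whose arrays do not overlap. The count of 10 is therefore no measure of robustness. With 1 array left out, PLA2G4A ran from -1.38 to 0.012, PTGES from -0.59 to 0.19 and PTGER4 from -0.87 to 0.44. PLA2G4A turned sign without PC9 replicate 2. PTGES was 0.028 with the mean of all probe sets, 0.024 without PC9 replicate 2, 0.19 without MTAC-P replicate 1, and 0.18 and 0.11 on its other probe sets. PTGES3 was 0.13 on 1 of its other probe sets, and HPGD was 0.13 on 1 of its other probe sets. PTGER4 was 0.44 without PC9 replicate 1 and 0.12 without MTAC-P replicate 2. PTGS2, PTGS1, PTGES2 and PTGR1 kept their direction under every setting and on every probe set run. Their arrays did not overlap, so only array scaling and other probe sets or their mean could have turned it.

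The count of genes past the threshold, 3 in all, was 77 with a variance trend, 124 at an adjusted p threshold of 0.10, 1 with the 50th percentile filter, 1 with the pseudocount of 16, 0 with the mean of all probe sets, and from 0 to 68 when 1 array was left out. The count among the 9 tested prostaglandin genes, 0, was 1 with the variance trend, 1 at the threshold of 0.10 and from 0 to 1 when 1 array was left out. That gene was PTGS2 each time, and since it was chosen for its difference this is no test of it. With the replicate number as a block, 2079 of the 14970 tested genes passed, among them 15 of the 105 list genes. Of the 9 tested prostaglandin genes 4 passed, but PTGS2 was chosen for its difference and HPGD and PLA2G4A were admitted only through PC9. Of the other 6, PTGS1 alone passed. The replicate numbers are not known to pair the arrays. Deviations of same-numbered arrays correlated at 0.28 across genes, which are not independent replicates. The block leaves 1 residual degree of freedom against 2 without it. The prior degrees of freedom, which limma estimates over all genes and adds to these, were 29.97 with the block and 4.38 without it. With 2 arrays per line, values near the dim value of 4.14, as for HPGD, PTGER2 and PLA2G4A, cannot separate low expression from none.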

Other observations

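PTGFR, which encodes the prostaglandin F receptor, had values of 3.92 and 5.51 in PC9 and of 3.86 and 4.29 in MTAC-P, so PC9 replicate 2 alone stood well above the dim value, as it did for PLA2G4A at 5.32. PC9 replicate 2 exceeded each of the other 3 arrays by at least 1 on the log2 scale for 53 of the 14970 tested genes, or 0.354%. The corresponding counts were 10 for PC9 replicate 1, 7 for MTAC-P replicate 1 and 23 for MTAC-P replicate 2. CEBPB, a transcription factor gene of the PTGS2 regulator list, had 10.77 and 11.88 in PC9 and 11.03 and 11.98 in MTAC-P. Replicate 2 was the higher array in each line, and the lines differed by 0.18 (SE 0.44). EGR1 showed the opposite order of replicates, with 10.02 and 8.75 in PC9 and 10.76 and 9.29 in MTAC-P, and a difference of 0.64 (SE 0.56) between the lines. CEBPB, EGR1 and PTGFR were chosen after their values were seen.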
